A study of Mus musculus with 6 samples.

Results

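The genes read here were the galectin genes Lgals1, Lgals3, Lgals4, Lgals8, Lgals9 and Lgals12, together with Lgals3bp. Lgals3bp encodes a secreted glycoprotein that galectin-3 binds, and for brevity it is counted among the 7 galectin genes. Lgals2 and Lgals7 were also measured and are given below with the relatives. The 7 genes were taken as the probe sets whose platform annotation names exactly 1 gene symbol, that symbol being among the 7. This gave 7 probe sets, 1 each, out of 19938 genes tested. The genes were selected on their log2 differences between the 2 hairpin groups as well as on their family, so these differences between the groups are given as a description and support no test. The cells were URE, a mouse leukaemia line, and URE cells are known, as background, as a myeloid line with reduced PU.1 activity. In the shHLX group (3 arrays) the cells had received a lentivirus with a short hairpin against Hlx. In the shControl group (3 arrays) the hairpin of the same vector was directed at luciferase, a gene that mouse cells do not have. In both groups the vector also encoded the fluorescent protein copGFP, infected cells were grown in medium with serum and blood cell growth factors, the green cells were collected by flow sorting, and each array received cDNA amplified out of 10 ng of RNA. A single hairpin name per group in 1 cell line limits the model, and nothing in the labels says whether replicates came from separate infections or cultures.

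Galectins are lectins that bind sugars ending in beta-galactoside through a conserved carbohydrate recognition domain. They are made in the cytosol without a signal peptide, leave the cell by an unconventional route, and cross-link glycoproteins at the cell surface, while inside the cell they bind sugars exposed on damaged endosomes and lysosomes. Galectin-1 is a prototype form that pairs with itself, galectin-3 is the chimera form with a long proline- and glycine-rich tail, and galectins 4, 8, 9 and 12 carry a pair of recognition domains joined by a linker. In blood, galectin-3 is known as the macrophage antigen Mac-2 and galectin-9 as a ligand of TIM-3, an inhibitory receptor of T cells.

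The arrays gave log2 signals with medians over all probe sets of 7.02 to 7.10, and 25th percentiles of 5.74 to 5.78. The probe set of Hlx gave 10.08, 10.06 and 10.17 on the arrays labelled shHLX, against 10.21, 10.12 and 10.20 on the shControl arrays. The groups overlapped, with a difference of -0.07 (SE 0.05), and an exact two-sided permutation test gave p = 0.2 (with 3 arrays a group its smallest possible p is 0.1). The knockdown is therefore not visible on these arrays, and the direction of each difference rests on the labels. Genes of myeloid progenitors were bright, with Elane, the neutrophil elastase gene, at 13.95 and 14.00 and Spi1, which encodes PU.1, at 10.34 and 10.34 (means of the shHLX arrays and the shControl arrays). The probe sets of Ptprc, which encodes the leukocyte antigen CD45, at 6.06 and 6.01, and of Cd34, at 5.97 and 6.05, were close to the 25th percentile. Of 8 progenitor markers, Kit (-0.73) and Mpo (-1.46) were called lower (limma, adjusted p under 0.05), where 2.43% of all genes were. Nothing is read from a count in so short a list. The summed signal of the list, on the log2 scale, was 15.41 on all 3 shHLX arrays and 15.51 to 15.55 on shControl arrays. Elane, Prtn3 (means 13.56 and 13.66) and Ctsg (means 13.58 and 13.58), none of them called, made up most of that sum. The part of this shift of the list in the galectin differences was not tested. The second principal component held 18.1% of the variance and set shHLX 3 and shControl 1 apart from the other 4 arrays.

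Galectin-3 and galectin-9 transcripts stood on opposite sides. Lgals3 was 1.46-fold higher and Lgals9 was lower, at 0.664 of control, on the arrays labelled shHLX. Lgals3bp was also lower, at 0.853 of control. Small positive differences were measured for Lgals1 and Lgals4, and Lgals8 and Lgals12 lay near equality. In the fit across all genes, 1 of the 7 was past the threshold upwards (Lgals3) and 2 downwards (Lgals9 and Lgals3bp). The threshold was a Benjamini-Hochberg adjusted p under 0.05 by limma, which 6.18% of all genes passed, 3.75% upwards and 2.43% downwards. For 5 of the 7 every shHLX value lay on the same side of all shControl values, as it did for 26.2% of all genes. Nothing is read from these counts, since the genes were chosen on this comparison. The median difference of the 7 genes was 0.01, beside -0.01 for all genes tested. In RNA from a sorted population, fewer cells of a type and less RNA per cell cannot be told apart.

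**Figure D1:**
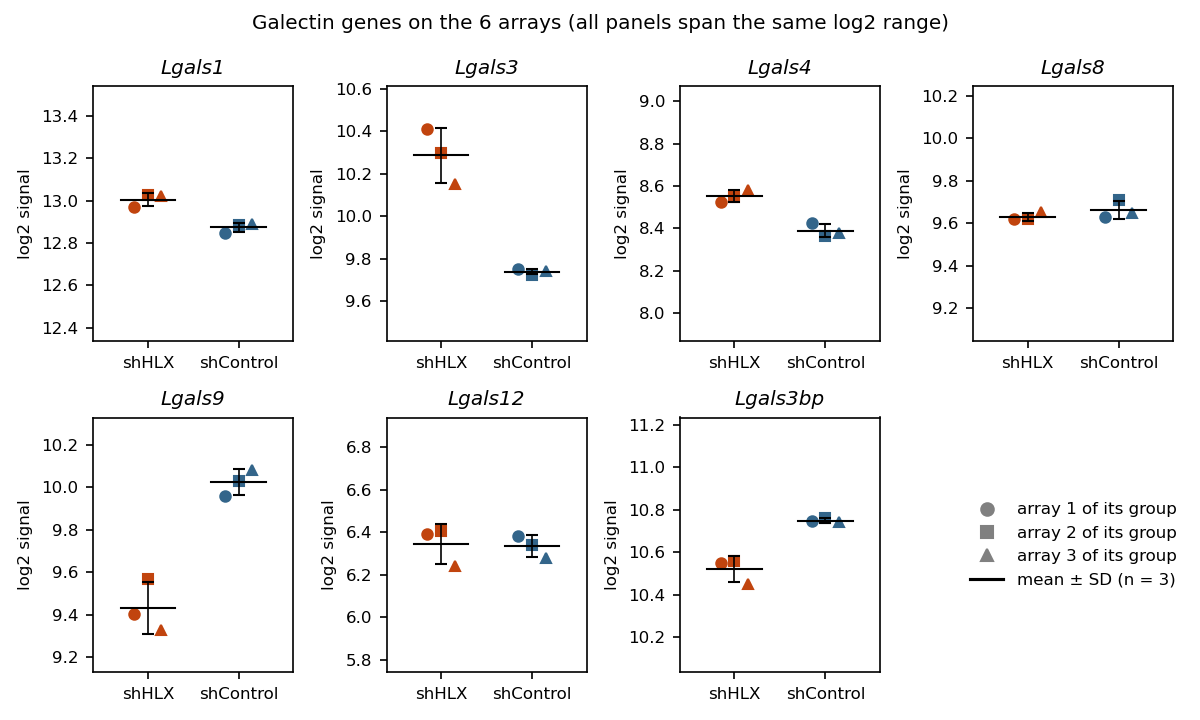
Log2 signal of the 7 galectin genes on each array, with shHLX arrays at the left and shControl arrays at the right of each panel. Symbols mark the array's number in its group, the bar is the mean and the whisker the SD (n = 3). The shHLX values of Lgals3 lie above and those of Lgals9 and Lgals3bp below every shControl value, while the groups of Lgals8 and Lgals12 overlap.

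The 250 bases upstream of the RefSeq start are shown for the 3 genes past the threshold, since it is their transcripts that differed most, and 5 of the 7 genes had an entry in the RefSeq promoter table (GRCm38.p6). The Lgals3 sequence is chr14:47373610-47373859 on the plus strand, that of Lgals9 is chr11:78984925-78985174 on the minus strand, and that of Lgals3bp is chr11:118401960-118402209 on the minus strand. Each is written 5′ to 3′ on the strand of its gene, and capitals mark matches on either strand to AANNGAAA, the core of sites for interferon regulatory factors, or to GAGGAA, a core of PU.1 sites. These motifs were picked after the signals and sequences were seen.
Lgals3: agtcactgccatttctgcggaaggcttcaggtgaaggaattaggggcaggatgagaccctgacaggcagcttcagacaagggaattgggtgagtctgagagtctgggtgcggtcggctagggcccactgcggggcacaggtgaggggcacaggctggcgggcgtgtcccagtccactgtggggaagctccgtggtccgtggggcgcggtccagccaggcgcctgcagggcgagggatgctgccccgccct
Lgals9: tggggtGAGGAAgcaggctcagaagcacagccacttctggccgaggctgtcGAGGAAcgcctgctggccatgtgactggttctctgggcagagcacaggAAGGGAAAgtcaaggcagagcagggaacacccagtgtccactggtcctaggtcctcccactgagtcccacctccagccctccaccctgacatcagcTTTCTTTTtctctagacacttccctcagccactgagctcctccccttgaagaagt
Lgals3bp: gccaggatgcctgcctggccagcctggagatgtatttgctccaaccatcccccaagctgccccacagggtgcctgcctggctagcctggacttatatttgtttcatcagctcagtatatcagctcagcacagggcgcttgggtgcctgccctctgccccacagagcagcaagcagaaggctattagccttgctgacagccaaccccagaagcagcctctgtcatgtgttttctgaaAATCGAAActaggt
The Lgals9 window held 2 matches to AANNGAAA and 2 to GAGGAA, and the Lgals3bp window held 1 match to AANNGAAA, starting 14 bases upstream of the gene. The Lgals3 window held neither. Over 32851 promoter windows of the same length, 21.3% held AANNGAAA and 23.3% held GAGGAA, so both motifs are common. TAATTA, a core shared by many homeodomain proteins, was found in 4.84% of windows and in none of these 3. The matches describe letters in these windows and were not tested as binding sites.

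Galectin-1, the prototype member, is abundant in many leukaemia cells and is known for triggering death of activated T cells. Lgals1 gave 12.97, 13.03 and 13.02 on the shHLX arrays, against 12.85, 12.88 and 12.89 on the shControl arrays. All shHLX values lay above all shControl values, but the gap was small. The difference was 0.13 (SE 0.04), or 1.09-fold (95% confidence interval 1.02 to 1.17), and was not past the threshold over all genes. Its replicates were tight, with a pooled SD of 0.0271 beside 0.0728 for the median gene. The call was made in 2 of the 16 alternatives to the main analysis, both of which lowered its standard error and kept the same difference.

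Galectin-3, the chimera member, is made by monocytes and macrophages and binds branched N-glycans. Lgals3 gave 10.41, 10.30 and 10.15 on the shHLX arrays, against 9.75, 9.73 and 9.74 on the shControl arrays. Every shHLX array was higher than every shControl array, and the shHLX arrays also differed more among themselves. The SD was 0.128 on shHLX arrays and 0.0122 on shControl arrays (n = 3 each). The difference of 0.55 (SE 0.07), a fold of 1.46 (95% confidence interval 1.31 to 1.63), ranked 197th among all genes by rise. It kept its sign and its side of the threshold in all 16 alternatives, and it lay between 0.49 and 0.61 when single arrays were left out. Without both arrays that the second component set apart it was 0.62.

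Lgals3 is itself used as a macrophage marker, so the macrophage genes are given beside it. Of 8 such genes, 1 passed the test, Lyz2, which encodes lysozyme and was higher on the shHLX arrays by 0.39. Of all genes 3.75% passed upwards and 2.43% downwards, and nothing is read from a count in so short a list. The list did not hold the myeloid integrin genes Itgam and Itgb2, which rose by 0.75 and 0.22 and are given below with the counter-receptors. The summed signal of the list, on the log2 scale, was 13.70 to 13.74 on shHLX arrays and 13.33 to 13.39 on shControl arrays. Lyz2 itself, at 13.58 on shHLX arrays and 13.19 on shControl arrays, made up most of that sum. Of the others, given as means of the shHLX arrays and the shControl arrays, Cd68 lay at 9.16 and 9.17, Cd14 at 8.54 and 8.45, C1qa at 6.52 and 6.50 and Csf1r at 6.24 and 6.36, all above the 25th percentile of all probe sets. Adgre1, which encodes F4/80, at 5.34 and 5.28, Mrc1 at 5.58 and 5.61 and Msr1 at 4.24 and 4.28 lay below it. Without background values, a place above that percentile does not show that a gene was detected. The part of these markers in the Lgals3 difference was not tested.

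Galectin-4, a member with a pair of domains, is known mainly from the lining of the gut. Lgals4 gave 8.52, 8.55 and 8.58 on the shHLX arrays, against 8.43, 8.37 and 8.38 on the shControl arrays. The groups did not overlap. The difference was 0.16 (SE 0.04), or 1.12-fold (95% confidence interval 1.04 to 1.20), and was not past the threshold over all genes. It passed when genes below the 25th percentile or below the median of signal were removed, where its standard error was also smaller. Of 9 intestinal epithelial genes 0 passed limma in the same fit, where 6.18% of all genes did, and 0 passed without variance moderation. At an unadjusted p under 0.05 stood 3, all lower: Epcam (-0.13), Krt18 (-0.20) and Vil1 (-0.18). The summed signal of the 9 genes, on the log2 scale, was 9.69 to 9.87 on shHLX arrays and 9.87 to 9.96 on shControl arrays. By signal the 9 genes lay between percentiles 23.8 and 51.3 of all genes. No background values were at hand to say whether they were detected. The Lgals4 probe set lists 2 RefSeq transcript entries, of which 1 is not assigned to Lgals4 in the RefSeq table. Some mouse strains carry a near-identical neighbouring gene, Lgals6, so the signal cannot be credited to Lgals4 alone.

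Galectin-8 marks damaged vesicles for autophagy and also acts on integrins. Lgals8 gave 9.62, 9.62 and 9.65 on the shHLX arrays, against 9.63, 9.71 and 9.65 on the shControl arrays. The groups overlapped. The difference was -0.03 (SE 0.04), a fold of 0.978 (95% confidence interval 0.912 to 1.05).

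Galectin-9 is induced by interferon-gamma in many cell types, and as a TIM-3 ligand it has been studied in myeloid leukaemia. Lgals9 gave 9.41, 9.57 and 9.33 on the shHLX arrays, against 9.96, 10.03 and 10.08 on the shControl arrays. All shHLX values were lower than all shControl values, by a margin wider than the spread in either group. The SD was 0.122 on shHLX arrays and 0.0605 on shControl arrays (n = 3 each). The difference of -0.59 (SE 0.07), a fold of 0.664 (95% confidence interval 0.594 to 0.741), ranked 86th among all genes by fall. It kept its sign and its side of the threshold in all 16 alternatives. When single arrays were left out it lay between -0.66 and -0.54, and without both arrays set apart by the second component it was -0.57. The RefSeq table gives Lgals5 as an older name of Lgals9, and no probe set carried the name Lgals5.

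Galectin-12 is known from fat cells and from myeloid cells. Lgals12 gave 6.39, 6.41 and 6.24 on the shHLX arrays, against 6.38, 6.34 and 6.28 on the shControl arrays. The groups overlapped, and no background values were at hand to say whether this dim signal was detected. The difference was 0.01 (SE 0.06), a fold of 1.01 (95% confidence interval 0.916 to 1.11), and its sign was the same in 12 of 15 alternatives. Of 7 adipocyte genes 0 passed limma, where 6.18% of all genes did. At an unadjusted p under 0.05 stood 1 (Pparg, higher by 0.17), and 0 passed without variance moderation. As means of the shHLX arrays and the shControl arrays, Lipe (8.70 and 8.66), Lep (8.59 and 8.60), Pparg (7.55 and 7.38), Plin1 (7.43 and 7.52) and Cidec (6.87 and 6.95) lay above the 25th percentile of all probe sets. Adipoq (4.90 and 4.96) and Fabp4 (4.83 and 4.81) lay below it. A place above that percentile does not show that a gene was detected.

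Lgals3bp encodes a secreted, heavily glycosylated protein, known as Mac-2 binding protein or 90K, that galectins bind and that interferons induce. It gave 10.55, 10.56 and 10.45 on the shHLX arrays, against 10.75, 10.76 and 10.74 on the shControl arrays. The groups did not overlap, and the shControl arrays lay within a narrow range. The difference was -0.23 (SE 0.05), a fold of 0.853 (95% confidence interval 0.791 to 0.919), and it ranked 558th by fall. Unlike Lgals3 and Lgals9, it lost its call whichever of the 6 arrays was left out (limma adjusted p 0.0518 to 0.106). The difference then lay between -0.25 and -0.19, and it kept its sign in all 16 alternatives.

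The array shHLX 3 was the lowest of its group for Lgals3, Lgals9, Lgals12 and Lgals3bp, by 0.13, 0.11, 0.11 and 0.07 below the group mean. It was the highest of its group for Lgals4 and Lgals8. For Lgals3 this brought it nearer to the shControl arrays, and for Lgals9 and Lgals3bp farther from them. Leaving it out gave 0.61 for Lgals3, -0.54 for Lgals9 and -0.19 for Lgals3bp.

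**Figure D2:**
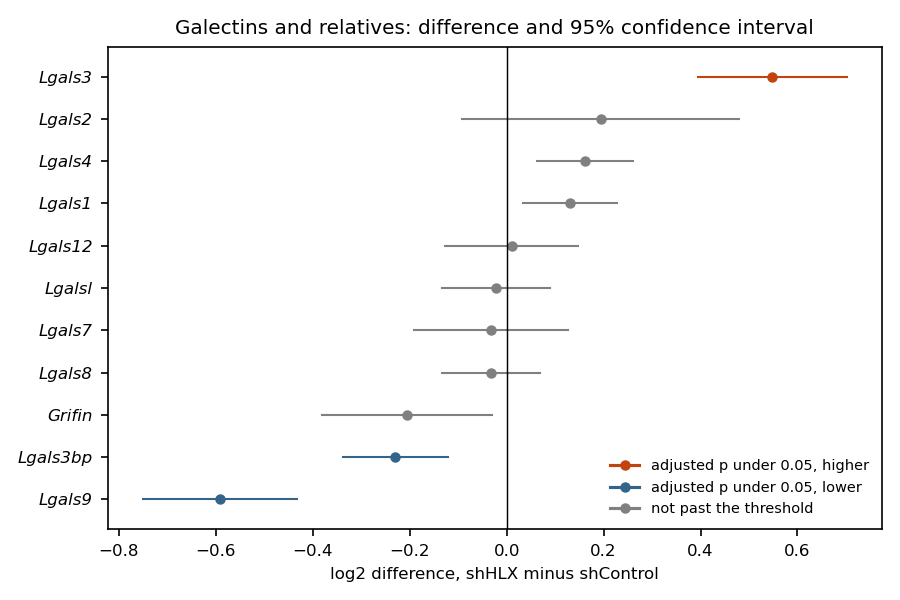
Log2 difference, shHLX minus shControl, of the 7 galectin genes and 4 relatives, as points with limma's 95% confidence intervals (n = 3 arrays a group). Lgals3 stands alone at the upper end at 0.55 and Lgals9 at the lower end at -0.59.

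The remaining galectins and relatives of the family were read from the same fit. Of 6 listed, 4 had a probe set (Lgals2, Lgals7, Lgalsl and Grifin) and 0 passed limma, where 6.18% of all genes did. At an unadjusted p under 0.05 stood 1 of them, and 0 passed without variance moderation. Grifin, which encodes a lens protein of galectin fold, gave 7.06, 7.26 and 6.96 on shHLX arrays, against 7.30, 7.29 and 7.31 on shControl arrays, a difference of -0.21 (SE 0.08, limma adjusted p = 0.186). It passed without shHLX 2 (limma adjusted p = 0.0306). Lgals2 differed by 0.19 (SE 0.12), Lgals7 by -0.03 (SE 0.07) and Lgalsl by -0.02 (SE 0.05).

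**Figure D3:**
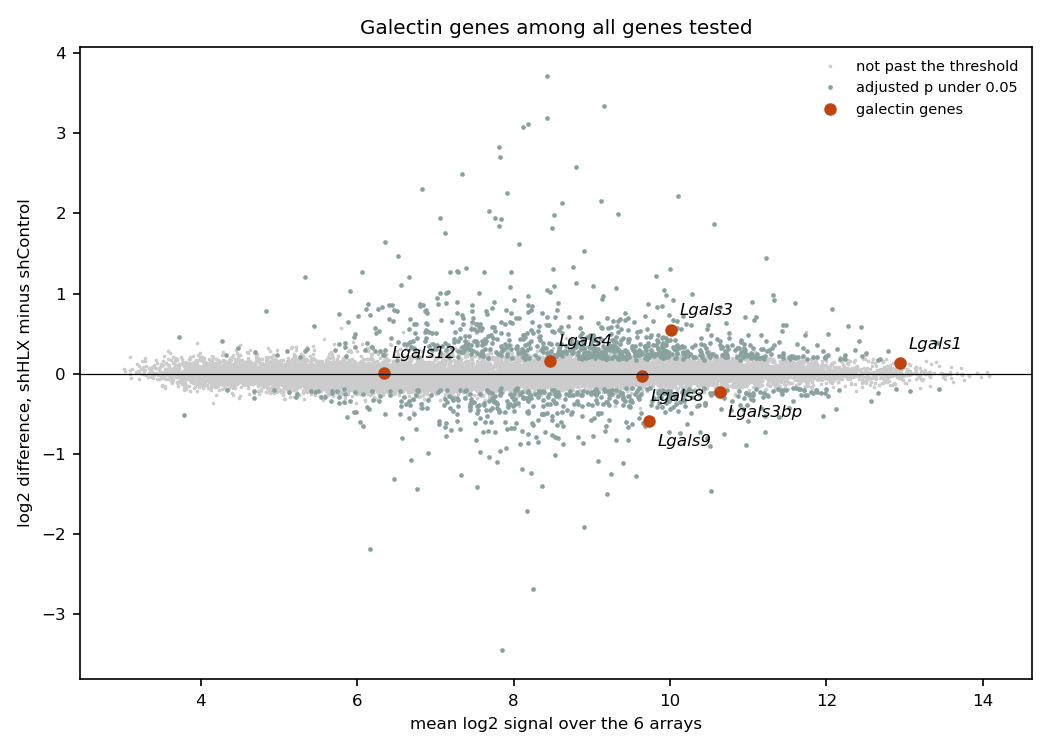
Log2 difference, shHLX minus shControl, of each of 19938 genes against its mean log2 signal over the 6 arrays, with genes past the threshold in darker grey-green and the 7 galectin genes as large labelled points. Lgals3 (0.55) and Lgals9 (-0.59) lie outside the dense band, and differences of up to 3.72 and down to -3.45 occurred elsewhere.

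Likeness of pattern was measured as Pearson's r over the 6 arrays, which share the 2 groups, so any gene that separates them scores high. The 3 most alike named genes were Il17a, Aldh3b1 and Aldh1l2 for Lgals3 (r = 0.998, 0.997 and 0.995). For Lgals9 they were Nfix, Plagl2 and Tmem79 (r = 0.998, 0.998 and 0.997), and for Lgals3bp they were Kcne4, Tmem220 and Serpinf1 (r = 0.999, 0.998 and 0.997). Il17a itself differed by 0.09 and was not past the threshold, so a high r over 6 arrays does not need a large difference.

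Galectins act through glycoproteins, and 24 genes of known counter-receptors were read as a list. Of these 5 rose and 1 fell (limma, adjusted p under 0.05), where 3.75% of all genes rose and 2.43% fell. Because the list was chosen with earlier results of these arrays known, nothing is read from its counts. The list's median difference was 0.04, beside -0.01 for all genes. Nrp1, which encodes neuropilin-1, a receptor that galectin-1 binds on endothelium, gave 9.52, 9.47 and 9.51 on shHLX arrays, against 7.73, 7.41 and 7.42 on shControl arrays. It rose 3.94-fold (95% confidence interval 3.42 to 4.52, limma adjusted p = 1.34e-05). The integrin genes Itgam (1.68-fold) and Itgb2 (1.16-fold), the transferrin receptor gene Tfrc (1.28-fold) and P4hb (1.13-fold), a protein disulfide isomerase that galectin-9 binds on T cells, also rose, and the hyaluronan receptor gene Cd44 fell by 0.34 on the log2 scale. P4hb was lost whichever array was left out (limma adjusted p up to 0.166), and Itgb2 without any array but shHLX 3 (up to 0.119). Havcr2, the TIM-3 gene, was dim, at 5.60, 5.51 and 5.44 on shHLX arrays, against 5.49, 5.84 and 5.61 on shControl arrays. The lysosomal glycoprotein gene Lamp1 differed by 0.15 (limma adjusted p = 0.0882) and Ptprc by 0.06 (limma adjusted p = 0.62).

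The sugars that galectins read are built by glycosyltransferases, and of 28 measured genes 4 rose and 2 fell (limma, adjusted p under 0.05), where 3.75% of all genes rose and 2.43% fell. This list too was chosen with earlier results known, so nothing is read from its counts. The list's median difference was -0.001, beside -0.01 for all genes. Mgat5, whose product makes the branched N-glycans that galectin-3 prefers, gave 10.74, 10.77 and 10.81 on shHLX arrays, against 11.00, 11.02 and 10.95 on shControl arrays, and was lower by a log2 difference of -0.21 (SE 0.04, adjusted p = 0.0293 by limma). B3gnt8, which extends poly-N-acetyllactosamine chains, rose 1.23-fold (95% confidence interval 1.14 to 1.31), and Gcnt1, which branches O-glycans, rose 1.24-fold (1.14 to 1.36). Fut8 (1.20-fold) and Mgat1 (1.16-fold) rose and the fucosyltransferase gene Fut4 fell by 0.38 on the log2 scale. Only B3gnt8 of these 6 kept its call whichever array was left out, and 1 to 3 of the list were then called. Mgat5 and Mgat1 were lost without any 1 array (limma adjusted p up to 0.11 and 0.189), Fut8 without any but shHLX 2 (up to 0.135), Fut4 without any but shControl 1 (up to 0.102), and Gcnt1 without shHLX 1, shControl 1 or shControl 2 (up to 0.0625). St6gal1, whose product caps galactose with sialic acid and so hides it from most galectins, differed by -0.13 (SE 0.07, limma adjusted p = 0.399).

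**Figure D4:**
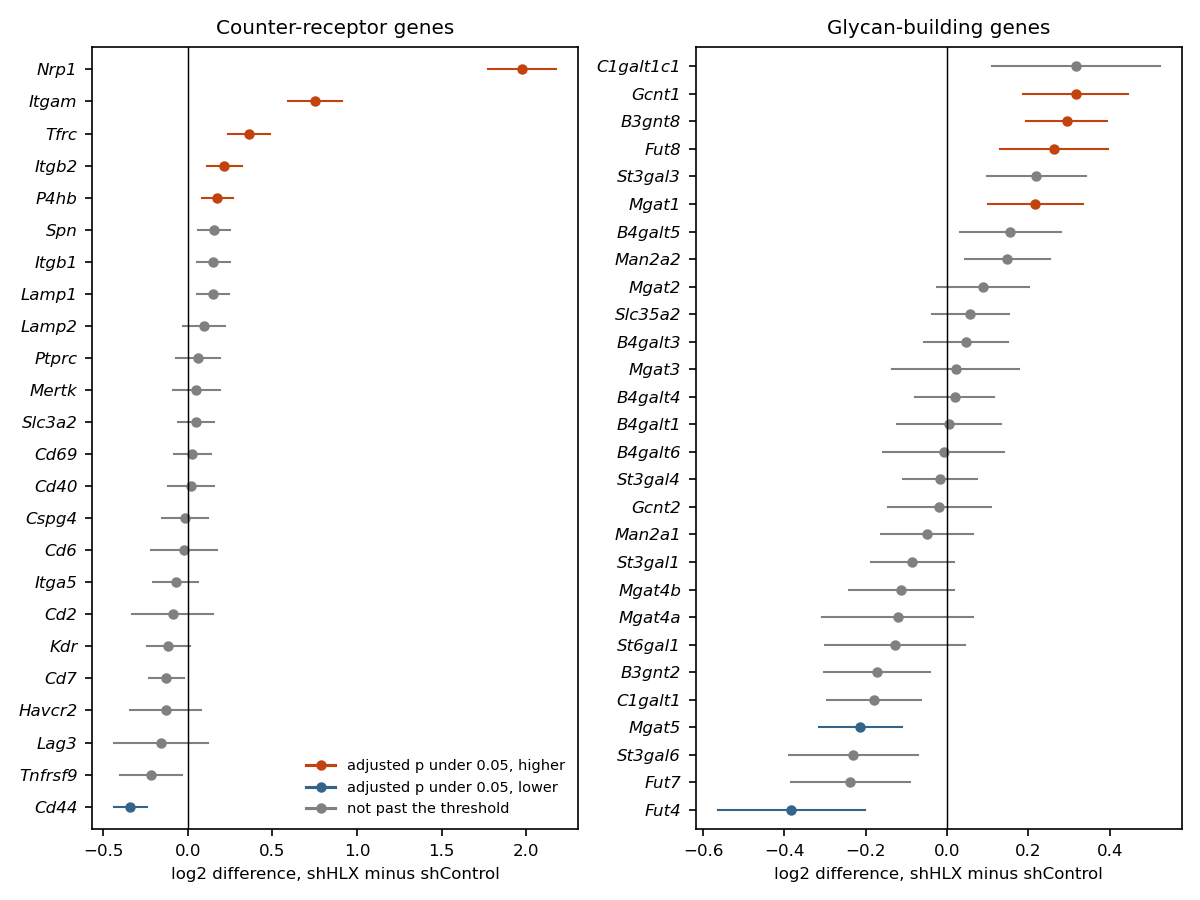
Log2 difference, shHLX minus shControl, of 24 counter-receptor genes (left) and 28 glycan-building genes (right), as points with limma's 95% confidence intervals (n = 3 arrays a group). The x axes differ in range: Nrp1 reaches 1.98 among the counter-receptors, and the glycan-building genes lie between -0.38 and 0.32.

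Of 19 genes of intracellular galectin partners and of the response to damaged membranes 0 passed limma, where 6.18% of all genes did. At an unadjusted p under 0.05 stood 7, and 1 passed without variance moderation. The share of all genes at that unadjusted p was not counted, so nothing is read from the 7. Trim16, a galectin-3 partner in that response, differed by 0.13 (SE 0.04), and Vps13c, whose product binds galectin-12, by 0.16 (SE 0.07). The median difference of the 19 genes was 0.08, beside -0.01 for all genes. For 10 of the 19 the groups did not overlap, as for 26.2% of all genes. The 19 genes were bright, with percentiles of signal among all genes from 55.7 upwards and a median of 93.2. All genes are therefore an unlike comparison for their median and their overlap. This list too was chosen with earlier results known, so nothing is read from its counts. Because Lgals9 and Lgals3bp are interferon-inducible, 15 interferon-induced genes were read beside them. Stat2 rose 1.14-fold (limma adjusted p = 0.0392, lost whichever array was left out, up to 0.164), 14 others did not pass, and the median of the list was 0.06. Of the 15, 1 was called higher and 0 lower, where 3.75% and 2.43% of all genes were. In a list of 15 such counts say little, and nothing is read from them. The part of interferon in the Lgals9 and Lgals3bp differences was not tested.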

How the data were processed

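RNA of 6 samples of URE cells, 3 arrays labelled shHLX and 3 labelled shControl, was measured on Affymetrix arrays. The deposited values are log2 signals, 1 per probe set and array. Per the submitters' processing notes the authors used RMA, which corrects background, equalises the arrays' distributions and summarises probes, and Affymetrix Power Tools 1.178. A genome build for the array was not used here. RMA compresses dim signals, so folds of dim genes tend to be too small, and signals of different probe sets are not comparable levels. A summed signal of a list therefore weighs its genes unequally and is set only against the same sum on other arrays.

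Of 35556 probe sets, 21789 named 1 gene symbol, 1621 several and 12146 were not listed. The probe set of highest mean stood for a gene, which left 19938 genes. limma 3.58.1 (R 4.3.3; lmFit, eBayes, two-sided) compared the groups, with Benjamini-Hochberg adjustment over all genes and a threshold of 0.05. The code was tested on simulated data. A p-value here covers no more than the variation among these arrays, which may be technical, and 3 arrays a group limit the precision.

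The galectin genes, the gene lists, motifs and tests were chosen with earlier results of these data known. Named were the galectins and relatives, called genes of each list, genes with a direct galectin tie, and, for each called galectin, the 3 most correlated genes, passing over predicted and small RNA genes. Lists of fibroblast (7 measured), eosinophil (5), T cell (3), B cell (2) and erythroid (2) markers had 0 called genes, 0 at an unadjusted p under 0.05 and 0 without variance moderation. Of all genes 6.18% were called. The share of all genes at an unadjusted p under 0.05 was not counted, so nothing is read from the unadjusted count of any list. The alternatives were other scalings, filters on dim genes, variance models, probe set rules, a replicate block, each array left out, and, added after seeing the data, both arrays set apart on the second component left out. Figures used matplotlib 3.10.9 in Python 3.11.15.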

Additional observations from a re-analysis of the deposited data

How the results depend on the processing

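Lgals3 and Lgals9 kept their direction and stayed past the threshold in all 16 alternatives (adjusted p up to 0.0469 and 0.0453). These fits reuse the arrays on which the genes were chosen, so they describe the processing and support no test. With single arrays left out, Lgals3bp lay between -0.25 and -0.19 and was never called. It was also not called without variance moderation, with all probe sets tested or with the replicate block (-0.23 each, adjusted p = 0.0599, 0.0786 and 0.0789), or without both arrays set apart on the second component (-0.20, 0.125). Lgals1 (0.13) was called above the median of signal and with an intensity trend, and Lgals4 (0.16) above the 25th percentile and above the median. Of the 7 genes, 5 were called above the median of signal, and 2 in each analysis with 1 array left out.

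Over all genes, 748 were higher and 485 lower. The counts were 1295 and 769 above the median of signal, 1437 and 824 with an intensity trend, 497 and 303 with the replicate block, and 459 and 282 without both arrays set apart. Genes lower numbered 306 without variance moderation and 321 with all probe sets tested. With 1 array left out the counts were 441 to 544 higher and 257 to 369 lower. shHLX 1 (490 and 276) and shControl 3 (441 and 257) moved both counts by over 1.5 times, and shControl 2 the lower count (281).

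Of the glycan-building genes, 6 were called, against 10 above the median of signal, 13 with an intensity trend, 2 without variance moderation, 1 with all probe sets tested, 3 with the replicate block, 3 without both arrays set apart and 1 to 3 with 1 array left out. Of the intracellular partners 0 were called, against 1 after a second quantile normalization, above the 25th percentile or without variance moderation, and 5 above the median of signal or with an intensity trend. Of the interferon-induced genes 1 was called, against 0 after a second quantile normalization, with all probe sets tested or without both arrays set apart, 2 with arrays centred, above the median of signal or without variance moderation, 3 with an intensity trend, and 0 to 1 with 1 array left out. Of the relatives 0 to 1 were called with 1 array left out. The signal filters test fewer genes and also changed standard errors. The cause of these shifts was not tested.

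Replicate numbers did not pair the arrays: deviations of same-numbered arrays correlated at -0.17, 0.13 and -0.15, and shControl 1 correlated best with shHLX 3 (0.34). Without detection values, dim genes such as Lgals12 and Havcr2 could not be placed above background.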
